A study of Mus musculus with 4 samples.

Results

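Sertoli cells were drawn from 4 droplet single-cell RNA libraries of dissociated mouse testis by a gate on marker genes. A barcode was kept if 200 genes or more were found in it and mitochondrial genes gave no more than 20% of its UMIs (unique molecular identifiers, the tags that mark single captured RNA molecules). It became a member if it had at least 3 of the 8 genes Cst12, Cst9, Defb19, Aard, Rhox8, Sox9, Wt1 and Amhr2, if these summed to at least 10 UMIs per 10000, and if the Leydig cell genes Insl3 and Cyp17a1 summed to less than 10 per 10000. The gate took 1302 of 57727 kept barcodes, which is 2.26%. The 4 libraries were 2 of testis from mice fed a high-fat diet (HFD 1 and HFD 2) and 2 of testis from mice fed a normal diet (ND 1 and ND 2). The labels name no strain, age, diet composition or length of feeding, and do not say whether each library came from its own mouse or from pooled animals. The p-values below therefore measure only the spread between these libraries, which may be technical. Testes were digested with collagenase, dispase and DNase before loading on 10x Chromium 3′ chemistry, version 3.

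Sertoli cells are the somatic cells of the seminiferous tubule. Each one spans the epithelium, holds germ cells of every stage in folds of its cytoplasm, seals the blood-testis barrier with tight junctions, supplies lactate to germ cells and engulfs the residual bodies that spermatids shed. Follicle-stimulating hormone and testosterone are its main hormonal inputs, and inhibin, transferrin, clusterin and anti-Müllerian hormone are among its secreted products. SOX9, WT1, DMRT1 and GATA4 are transcription factors that set and keep its identity.

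Chromosome 2 and the X chromosome held most of the 46 genes at least 100 times higher in members than in other cells, a set that includes gate genes. A cystatin pair and a beta-defensin gene belong to gene clusters on chromosome 2, and Tsx to the X chromosome. The sequences just upstream of these 4 genes, which mark these cells, are shown. Each is the 250 bases before the gene's start in RefSeq (build GRCm38.p6) on the plus strand, printed in lower case because none of the motifs searched below occurred in these 4. The windows are chr2:148789115-148789364 for Cst12, chr2:148834897-148835146 for Cst9, chr2:152604077-152604326 for Defb36 and chrX:103414217-103414466 for Tsx.
Cst12: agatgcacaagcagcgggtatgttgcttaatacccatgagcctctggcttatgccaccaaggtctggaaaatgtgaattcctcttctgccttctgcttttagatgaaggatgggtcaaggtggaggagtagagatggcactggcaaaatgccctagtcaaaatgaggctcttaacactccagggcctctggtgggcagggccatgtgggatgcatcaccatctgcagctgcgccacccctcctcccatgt
Cst9: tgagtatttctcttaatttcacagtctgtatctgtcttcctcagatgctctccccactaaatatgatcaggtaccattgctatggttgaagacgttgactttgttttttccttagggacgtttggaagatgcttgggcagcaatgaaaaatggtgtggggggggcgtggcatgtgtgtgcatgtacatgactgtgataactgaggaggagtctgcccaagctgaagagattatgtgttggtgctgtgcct
Defb36: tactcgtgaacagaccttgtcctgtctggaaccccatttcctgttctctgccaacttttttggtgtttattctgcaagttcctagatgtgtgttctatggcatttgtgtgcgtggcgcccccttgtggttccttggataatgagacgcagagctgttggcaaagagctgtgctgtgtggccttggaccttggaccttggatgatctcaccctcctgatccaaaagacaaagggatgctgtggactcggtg
Tsx: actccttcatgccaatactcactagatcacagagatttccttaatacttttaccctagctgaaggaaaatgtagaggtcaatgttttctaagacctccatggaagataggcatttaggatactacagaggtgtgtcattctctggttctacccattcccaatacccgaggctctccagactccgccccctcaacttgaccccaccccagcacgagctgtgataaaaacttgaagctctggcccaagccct
Of 23 gate and leading genes, 16 had a RefSeq window, 18 windows in all. The letters AACAAT (SOX proteins) occurred in 1 of the 18 windows, that of Wfdc10, and in 9.42% of all 32851 windows of the same length. The letters AGATAA, bound by GATA factors, occurred in the same 1 of the 18 and in 9.99% of all windows. The NR5A1 letters AAGGTCA occurred in 1 of the 18, that of Amhr2, and in 4.08% of all. Both strands were searched, and matches of different motifs that overlap were each counted. The Cst12 and Cst9 windows were identical at 48.3% of their aligned positions. A match to such short letters is a description of the window only.

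HFD 1 gave 294 members, HFD 2 gave 305, ND 1 gave 362 and ND 2 gave 341. No barcode sequence was a member in more than 1 library, and 16 member barcodes also occurred among kept barcodes of another library. The summed UMIs of the members were 1576147 and 1566502 for HFD 1 and 2, and 1602288 and 1617802 for ND 1 and 2, so every summed value below rests on a similar depth. A member had a median of 3526, 3141, 2588 and 2753 UMIs in the same order, against 6390, 6271, 5986 and 6387 in the other kept cells. The median mitochondrial share of members was 4.11%, 3.43%, 3.85% and 3.93%, while that of the other kept cells lay between 0.342% and 0.419%. The doublet caller Scrublet marked 51 members.

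Of the 8 gate genes, members most often held 5. Exactly 3 were found in 188 members, 4 in 260, 5 in 412, 6 in 316, 7 in 105 and all 8 in 21. Defb36, a beta-defensin gene that the gate did not use, was present in 81.7% of members with 4 or more gate genes, 45.2% of members with exactly 3, and 28.3% of the 159 cells that met the other limits with 2. At the other limit, it was present in 58.9% of the 73 members between 10 and 15 gate UMIs per 10000 and in 51.4% of the 111 cells between 5 and 10. The 426 cells that met the gate apart from the Leydig genes had Defb36 in 1.17%, near the 1.58% of all other kept cells. The gate's edge on the number of genes and on the level therefore runs through cells that carry Defb36, and its Leydig edge does not.

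The members were chosen by the levels of the gate genes, which are given first, as a description. Levels here are CPM, UMI counts of the summed cells scaled to 1000000 in all. Defb19, a beta-defensin of the Sertoli cell, stood at 2236, 1826, 1958 and 1951 CPM in HFD 1, HFD 2, ND 1 and ND 2. Cst12 and Cst9, secreted cystatins of 1 gene cluster on chromosome 2, stood at 862, 726, 821 and 919 CPM and at 1007, 805, 819 and 911 CPM. Aard, a gene on chromosome 15, stood at 1268, 1032, 1150 and 1243 CPM. In each of these 4 genes HFD 2 was the lowest library, and the diets overlapped. Rhox8, an X-linked homeobox gene, stood at 249, 234, 238 and 223 CPM, and Amhr2, the receptor of anti-Müllerian hormone, at 169, 178, 194 and 209 CPM. The transcription factors were sparse: Sox9 stood at 11.4, 16.0, 28.1 and 24.7 CPM and was found in 5.44% to 9.97% of members, and Wt1 at 34.3, 28.1, 45.6 and 53.8 CPM and was found in 11.8% to 19.6%. Both ND libraries lay above both HFD libraries for Sox9, Wt1 and Amhr2, 3 of the 8, while the diets did not overlap in either direction for 39.6% of all 10616 genes tested.

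**Figure D1:**
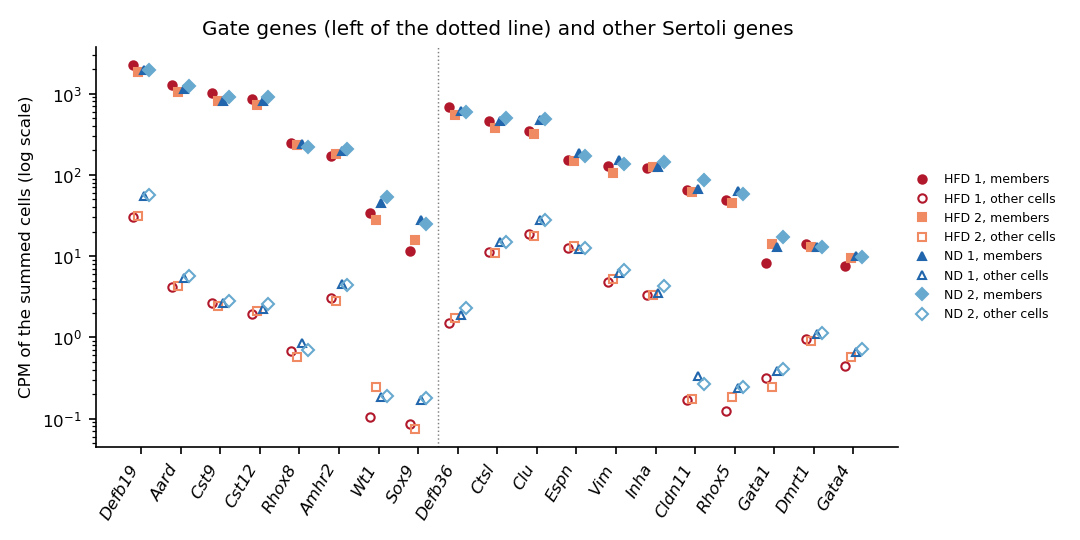
Level of 8 gate genes (left of the dotted line) and 11 other Sertoli genes, as CPM of the summed cells on a log axis, with 1 point per library; filled symbols are members and open symbols all other kept cells. Every filled point lies above every open point of the same gene, from Defb19 at 1826 to 2236 CPM down to Gata4 at 7.61 to 9.99 CPM in members.

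The label was then checked on Sertoli genes outside the gate. Of the secreted products, Clu, the chaperone clusterin, was at a mean of 23.0 CPM in other cells and 17.4 times higher in members. Inha, the alpha subunit of inhibin, stood at 122, 123, 125 and 146 CPM in members, a ratio of 36.0. Defb36 stood at 682, 543, 603 and 596 CPM, a ratio of 327. Junction genes were mixed. Cldn11, the tight junction claudin of the blood-testis barrier, stood at 66.0, 61.9, 66.8 and 86.5 CPM, 299 times the other cells. Espn, an actin bundler of the ectoplasmic specialisation where spermatids attach, was 12.95 times higher, and Vim, the intermediate filament vimentin, 22.7 times. Tjp1, a tight junction scaffold, was nearly level (ratio 1.14), and Cdh2, N-cadherin, was lower in members (ratio 0.66). Rhox5, an androgen-responsive homeobox gene, was 273 times higher. These are ratios inside cells picked for related genes, so they carry no test.

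Of 38 core Sertoli genes 23 had their lowest member library above the highest library of the other kept cells, and 15 did not. Among the 15 were Ldha and Slc2a3, which germ cells also express, at ratios of 0.60 and 0.57, and several genes used to define the cell were near 0. Amh, the anti-Müllerian hormone made by fetal and immature Sertoli cells, gave 0.63, 0, 1.25 and 1.24 CPM. Fshr, the receptor of follicle-stimulating hormone, gave 1 and 0 UMIs in the HFD libraries and 1 and 2 in the ND libraries. Gdnf, the niche factor of spermatogonial stem cells, gave 3 UMIs in HFD 1 and 0 elsewhere, and Esr2, an oestrogen receptor, 1 UMI in HFD 1 and 0 elsewhere. Transferrin (Trf) reached 3.71 to 5.11 CPM. Gata4, Gata1, Dmrt1 and Sox8 were found in 1.97% to 8.21% of members. At this depth low values do not show that the cells lack them.

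Genes at 20 CPM or more in every library of members numbered 5580, and 224 of them were at least 10 times higher in members than in the other kept cells. Gate genes, high by selection, were kept in this count and in the sets below, and 217 of the 224 were not gate genes. Together these 224 made up 3.06%, 2.54%, 2.92% and 3.07% of all member UMIs in HFD 1, HFD 2, ND 1 and ND 2. Their chromosomes were uneven: 16.5% lay on the X, against 1.94% of the 5580. Among the 46 genes at least 100 times higher, 18 lay on the X (39.1%) and 9 on chromosome 2 (19.6%). The gate gene Rhox8 was among the 18, and the gate genes Cst12, Cst9 and Wt1 were among the 9. Chromosome 2 held 9.38% of the 224 genes, with the gate genes Cst12, Cst9, Wt1 and Defb19 counted, and 7.54% of the 5580. Its share was therefore near the background at the 10-fold limit. Of the 15 non-gate genes with the highest ratios at 100 CPM or more, 8 were X-linked: Gm3880, 1700011M02Rik, Tsx, 1700018G05Rik, Gm9112, Etd, 4933402E13Rik and Tslrn1. A further 5, Gatm, Defb36, Defb45, Wfdc10 and Myl9, were on chromosome 2. Myl9 encodes a myosin light chain, and the last of the 15, Basp1 and Tuba1a, encode a membrane-bound signalling protein and an alpha tubulin.

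Genes of creatine, lactate and lipid metabolism were among those higher in members. Gatm and Gamt, which catalyse consecutive steps of creatine synthesis, stood at 463, 368, 420 and 476 CPM and at 248, 193, 208 and 214 CPM in members. They were 337 and 47.4 times the level of other cells. Ldhb, the heart-type lactate dehydrogenase subunit, stood at 513, 387, 425 and 443 CPM, a ratio of 44.1, while Ldhc, the germ cell subunit, stood at 5145 to 5928 CPM in members and was lower there than in other cells (ratio 0.68). Cidea, a lipid droplet protein known from brown fat, stood at 67.3, 62.6, 72.4 and 70.5 CPM against 0.14 in the rest. Alas2, the erythroid enzyme of haem synthesis, stood at 50.1, 47.2, 49.3 and 47.0 CPM against 0.11. Of the 5 erythrocyte genes examined, the globin genes Hba-a1, Hba-a2 and Hbb-bt were at 0 in members of every library. Every library lay within a narrow range for Cidea and Alas2, and the diets overlapped for Alas2.

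RNA of other cell types was present in the members, most of it from spermatids. The elongating spermatid list (Prm1, Prm2, Tnp1, Tnp2, Odf1, Akap4, Gapdhs and Smcp) summed to 76905, 81134, 84203 and 73079 CPM in members of HFD 1, HFD 2, ND 1 and ND 2. In other kept cells it summed to 23967 to 30528 CPM. Protamine and transition protein genes package the spermatid genome and are not Sertoli genes. By cell, Prm1, Prm2, Tnp1 and Tnp2 together had a median of 179, 165, 159 and 174 UMIs per 10000 in members, and their 90th percentile was 1554, 1525, 1407 and 1462. The values formed a lower hump under 200 and an upper spread with highest values of 2499, 2334, 2469 and 2214. Above 200 per 10000 stood 142, 137, 148 and 149 members, which is 48.3%, 44.9%, 40.9% and 43.7%, and 212 members lay between 150 and 250. Members above 200 had a median of 4847, 4214, 3557 and 4157 UMIs and those at or below it 2880, 2616, 2204 and 2354.

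**Figure D2:**
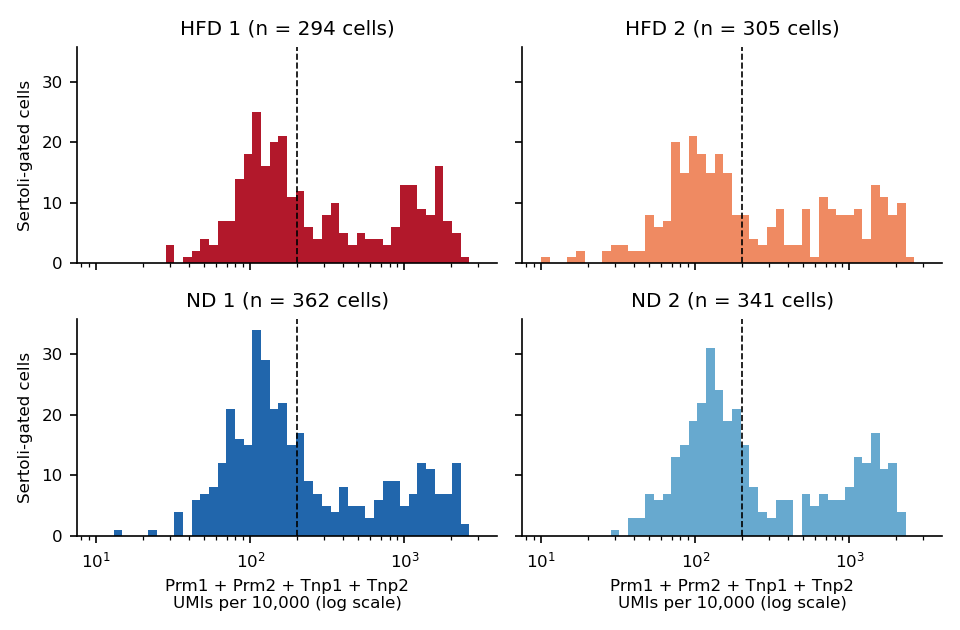
Number of Sertoli-gated cells by the sum of Prm1, Prm2, Tnp1 and Tnp2 per 10000 UMIs (log axis), with 1 panel per library and a dashed line at 200. In each library the cells spread over a lower hump and an upper range, and 40.9% to 48.3% of members lie above the line.

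Gate genes were present on both sides of that line. Defb19 stood at 1783 to 2260 CPM in members at or below 200 and at 1701 to 2317 CPM in members above it. Defb36, which the gate did not use, stood at 549 to 658 and 538 to 700 CPM. Other Sertoli genes, among them the gate genes Wt1, Amhr2 and Sox9, had lower mean levels above the line. Clu had a ratio of 0.41 between the means of members above and members at or below it, Rhox5 0.42, Wt1 0.45, Amhr2 0.54 and Cldn11 0.55. In HFD 1, however, Cldn11 stood at 67.7 CPM above and 63.7 at or below the line, Wt1 at 33.3 and 35.6, Vim at 146 and 108, and Inha at 135 and 105. Sox9, at a ratio of 0.37, stood at 9.99, 9.08, 9.72 and 17.9 CPM above the line. The early germ cell genes Dazl and Sycp1 were lower above the line in every library: Dazl, an RNA-binding protein of early germ cells, had a ratio of 0.10 and Sycp1, of the synaptonemal complex, 0.20.

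The spermatocyte list of 7 genes summed to 6793 and 7186 CPM in HFD members and 6307 and 6497 in ND members. Both HFD libraries were higher, as they were in other kept cells, at 10192 and 10252 against 9502 and 9547. Most of the sum in members was Ldhc, at 5698 and 5928 CPM in HFD and 5145 and 5221 in ND. By gene the list went both ways. Of its 7 genes 2 were higher and 2 lower in HFD at an unadjusted edgeR p under 0.05, and 0 passed. Round spermatid genes summed to 534 to 808 CPM in members against 1232 to 1537 in other cells. Lists for somatic and blood cells were smaller. The macrophage list of 8 genes summed to 105, 19.8, 79.9 and 98.3 CPM in members, with 3 of its genes at 0 in HFD 2 and none in the other libraries. Its sum in other kept cells was 29.2 to 43.1 CPM. Leydig genes summed to 55.5 to 74.9 CPM in members against 345 to 579 in other cells, after the gate had removed cells rich in Insl3 and Cyp17a1. The lymphocyte list reached at most 8.1 CPM with Cd79a at 0 in all libraries, and the endothelial list at most 8.3 with Cdh5 at 0. Peritubular myoid genes reached 32.6 to 42.5 CPM with Des at 0 in all libraries, and interstitial fibroblast genes 3.8 to 21.8 CPM.

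The design asks how testis cells differ between the diets. Members were a smaller share of kept cells in the HFD libraries: 2.17% (95% Clopper-Pearson interval 1.93 to 2.43) in HFD 1, 2.12% (1.90 to 2.37) in HFD 2, 2.37% (2.14 to 2.63) in ND 1 and 2.34% (2.10 to 2.60) in ND 2. These intervals, which cover counting error only, overlap between all 4 libraries. Both HFD libraries lay below both ND libraries, at 2.15% ± 0.033 (SD, n = 2) against 2.36% ± 0.025, and the two-sided exact permutation p was 0.333, the smallest that 2 libraries against 2 can give. The order did not hold with a higher floor on depth: over cells with at least 2000 UMIs the shares were 2.19% in HFD and 2.17% in ND. The smallest kept barcode held 1638 and 1468 UMIs in the HFD libraries and 1141 and 1171 in the ND libraries. Below 2000 UMIs lay 34 and 58 HFD members but 127 and 94 ND members. Counted against the other gated somatic type, members were 50.5% and 49.0% of Sertoli-gated and Leydig-gated cells together in HFD and 44.3% and 41.8% in ND, the opposite order. Leydig-gated cells themselves were 2.13% and 2.22% of kept cells in HFD and 2.98% and 3.25% in ND, so this ratio carries their lower share in HFD.

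Members of the HFD libraries were deeper, at a median of 3334 ± 272 (SD, n = 2) UMIs against 2671 ± 117 in ND (two-sided exact permutation p 0.333). Genes per member followed, at 1806 ± 125 against 1528 ± 24.4 and the same exact p. Among members with at least 2000 UMIs the log2 difference of the median UMIs was 0.06 in place of 0.32. The mitochondrial share of members overlapped between the diets.

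Of 10616 genes tested in summed member counts, 7 passed a Benjamini-Hochberg adjusted p of 0.05 (edgeR quasi-likelihood test), which is 0.0659%. The count was 3 with DESeq2, 20 with at least 2000 UMIs, 25 with a replicate block, 0 with thinned members or with no filter on low counts, and 6 to 189 without 1 library, the highest without HFD 1. An unadjusted p under 0.05 was reached by 963, which is 9.07%. Of the genes tested 1 was called higher in HFD (0.00942%) and 6 lower (0.0565%). Clu is a Sertoli product. Cd74, H2-Aa and H2-Eb1 belong to antigen presentation by MHC class II. Dazl is a germ cell gene, Zbtb20 a zinc finger repressor found in many tissues, and Psmg2 a chaperone of proteasome assembly. For these genes levels are CPM scaled by TMM factors (the trimmed mean normalisation of edgeR), and differences are log2 ratios of HFD over ND with their standard error (SE).

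Clu (chromosome 14, 65968483 to 65981547, GRCm38) was at 351 and 324 CPM in the HFD libraries and 477 and 481 in the ND libraries. The diets did not overlap, and the log2 difference was -0.50 (SE 0.10, edgeR adjusted p 0.0308; lower in 2 of 2 HFD libraries). Clu was present in 63.6%, 58.4%, 55.8% and 54.0% of members in HFD 1, HFD 2, ND 1 and ND 2, and in 5.74% to 7.84% of the deeper other kept cells. With each member thinned to 3000 UMIs, which left 191, 164, 150 and 151 members and left out 103, 141, 212 and 190, the shares were 58.6% and 46.3% in the HFD libraries, and both ND libraries lay between these, with the lower at 47.7%. The diets overlapped in the thinned shares, so the lower Clu level in HFD was not matched by a lower share of members with Clu. The 5 members richest in Clu held 15.4% and 21.5% of its UMIs in HFD 1 and HFD 2, and 31.0% and 31.2% in ND 1 and ND 2. Cells with at least 10 Clu UMIs numbered 5, 7, 10 and 12, and cells with at least 20 numbered 1, 3, 8 and 10.

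**Figure D3:**
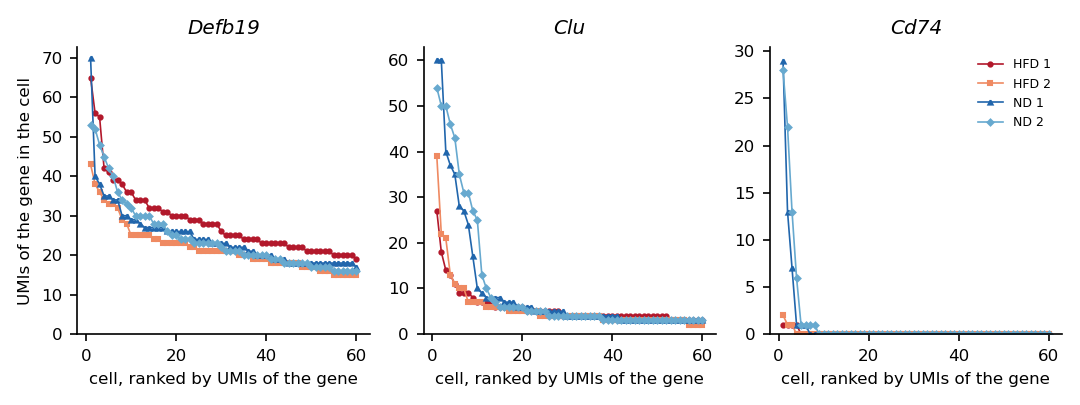
UMIs of Defb19, Clu and Cd74 in the 60 members richest in each gene, ranked within each library. Defb19 falls off smoothly in all 4 libraries; Clu shows a shoulder of rich cells in the ND libraries (10 and 12 cells with at least 10 UMIs), and Cd74 is held by 3 to 8 cells in each library.

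The 34 cells with at least 10 Clu UMIs were chosen by their Clu counts, after these were seen. They made up 1.70%, 2.30%, 2.76% and 3.52% of members in HFD 1, HFD 2, ND 1 and ND 2. Of them 27 had at most 200 spermatid UMIs per 10000, while 576 of all 1302 members stood above 200. Scrublet marked 0 of the 34, near its share of 2.93% to 4.70% of members by library. The median depth of the 34 cells was 6762, 9098, 7520 and 7698 UMIs, against 3489, 3081, 2542 and 2622 in the other members. Defb36 was nearly level between them and the other members, at 709 and 600 CPM, while a set of other genes was far higher. Sparc, a matrix-binding secreted protein, stood at 1564 CPM in these cells and 160 in other members. Ctsl, the lysosomal protease cathepsin L, stood at 2150 and 358 CPM, and Psap, the precursor of the saposins, at 458 and 44.3. Cldn11 was 5.53 times higher. Of the gate genes, Amhr2 was 4.70 times higher, Wt1 5.54 times and Sox9 8.02 times, against 1.58 times for Defb19, 1.75 for Cst9 and 2.22 for Cst12. Scd2, a fatty acid desaturase, was 14.7 times higher, and Soat1, which esterifies cholesterol, 12.5 times. Zbtb20 was 9.72 times higher in these cells, the germ cell genes Dazl and Sycp1 4.08 and 2.39 times, and the nuclear RNA Malat1 3.88 times.

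In the other members Clu stood at 296, 251, 269 and 242 CPM (unscaled) in HFD 1, HFD 2, ND 1 and ND 2. Since Clu itself chose the cells, and more of them in ND, leaving them out lowers its difference by construction. Sparc, with 34.8% of its UMIs in these cells, had a log2 difference of -0.52 over all members (SE 0.11, edgeR adjusted p 0.057, not passed), at 200 and 188 CPM in HFD and 273 and 284 in ND. In the other members Sparc stood at 167, 159, 155 and 160 CPM. These values are descriptions, and the part of the Clu-rich cells in the diet difference was not tested. In summed counts alone a smaller number of rich cells and less RNA in each such cell cannot be told apart. Counted by cell, the 5, 7, 10 and 12 Clu-rich cells of HFD 1, HFD 2, ND 1 and ND 2 held 83, 126, 338 and 415 Clu UMIs.

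Spermatid RNA divided the same genes. In members at or below 200 per 10000, Clu stood at 393 and 447 CPM in HFD and 828 and 746 in ND, a log2 difference of -0.89 (edgeR adjusted p 0.00728). A few cells weighed in this value. The Clu-rich cells at or below 200 numbered 3, 5, 10 and 9 in HFD 1, HFD 2, ND 1 and ND 2. In ND 1 they held 338 of the 560 Clu UMIs of members at or below 200. Sparc in members at or below 200 stood at 230 and 204 against 466 and 446, a log2 difference of -1.05 (edgeR adjusted p 0.00728). Above 200 Sparc had the opposite sign, at 169 and 167 CPM in HFD and 123 and 154 in ND, a log2 difference of 0.29. In members above 200, Clu stood at 304 and 213 in HFD and 203 and 268 in ND, and the diets overlapped, with a log2 difference of 0.15. Most other genes examined by these 2 sets were lower in HFD without overlap at or below 200 too. They included every gate gene except Cst9, and Vim, Espn, Gatm, Tsx and Ldhb. The share of all genes without overlap in these members was not counted. Ctsl stood there at 458 and 463 CPM in HFD and 742 and 689 in ND. Cldn11 stood at 63.7 and 75.9 against 117 and 122, and Inha at 105 and 128 against 161 and 195. Defb36, Rhox5 and Cst9 overlapped there. Above 200 Ctsl and Cldn11 overlapped and Inha was higher in HFD, at 135 and 119 against 99.4 and 106. Whether the 2 sets of members differ in their change of Clu or of these genes was not tested. The call for Clu was also lost without HFD 2 and without ND 2, with limma, with DESeq2 and with members thinned to 3000 UMIs each.

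**Figure D4:**
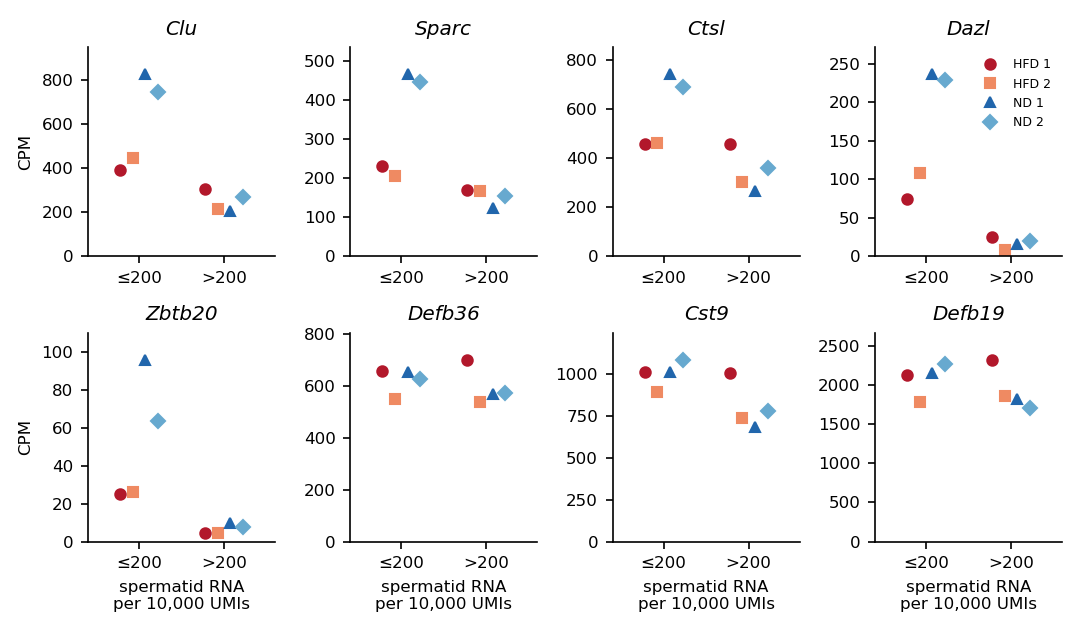
CPM of 8 genes in members with at most 200 (≤200) or more than 200 (>200) spermatid UMIs per 10000, with 1 point per library. Clu, Sparc, Ctsl, Dazl and Zbtb20 separate the diets in the members at or below 200. Defb36 overlaps between diets on both sides, and Defb19 is lower in both HFD libraries at or below 200 and higher in both above it.

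Dazl (chromosome 17, 50279395 to 50293636) was at 46.9 and 53.2 CPM in HFD and 111 and 112 in ND. Its log2 difference was -1.16 (SE 0.16, edgeR adjusted p 0.000332; lower in 2 of 2 HFD libraries). It was found in 10.2%, 9.84%, 9.94% and 12.3% of members and in 18.6% to 19.4% of other kept cells, which are deeper. HFD members were also deeper than ND members. In members thinned to 3000 UMIs the shares were 8.90% and 11.6% in HFD and 15.3% and 16.6% in ND, without overlap. Its mean level was 79.8 CPM (unscaled) in members and 47.6 in other kept cells. The 5 richest cells held 37.0% to 52.8% of its UMIs. Dazl is not known as a Sertoli gene, and in members above 200 spermatid UMIs per 10000 it stood at 24.4 and 7.94 CPM in HFD and 16.2 and 19.0 in ND. The diets overlapped there, the log2 difference was -0.10 and the call was lost, as it was with thinned members (log2 -1.24) and with no filter on low counts (log2 -1.14). Of the 3 tested genes of the spermatogonium list of 8, Dazl alone passed, and the summed list overlapped between diets at 801 to 870 CPM. Sycp1, another early germ cell gene, stood at 95.8 and 145 CPM in HFD and 194 and 199 in ND (log2 -0.71, SE 0.14, edgeR adjusted p 0.0505, not passed).

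Zbtb20 (chromosome 16, 42875881 to 43642602) was at 13.7 and 14.4 CPM in HFD and 47.1 and 32.7 in ND, a log2 difference of -1.50 (SE 0.27, edgeR adjusted p 0.0132). These levels rest on 21, 22, 74 and 53 UMIs. The call was lost without ND 1, without the 34 Clu-rich members, with DESeq2, with members thinned to 3000 UMIs and without members above 200 spermatid UMIs per 10000, while its log2 difference lay between -1.72 and -1.10 in all 17 alternatives that could be fitted. Psmg2 was at 35.2 and 50.6 CPM in HFD and 19.1 and 16.1 in ND, a log2 difference of 1.28 (SE 0.25, edgeR adjusted p 0.0357; higher in 2 of 2 HFD libraries). It was found in 14.97% and 17.05% of HFD members and 7.46% and 6.74% of ND members, and in thinned members in 9.42%, 15.2%, 6.67% and 6.62%. These shares lay below the 37.3% and 37.0% in HFD and 22.9% and 24.2% in ND of other kept cells, where its mean level was 51.1 CPM against 29.6 in members. Leaving out its 5 richest cells in each library gave a log2 of 1.40. Psmg2 was also higher in HFD in the other kept cells, by 0.92 (edgeR adjusted p 8.15e-09), and in Leydig-gated cells, by 1.00 (adjusted p 0.000486). In those cells 34.3% and 1.9% of all tested genes passed. Its call in members held in 9 of 18 alternatives. It was lost without HFD 2, without ND 2, with DESeq2, limma or no filter on low counts, with thinned members, at a mitochondrial limit of 10%, and on each side of 200 spermatid UMIs per 10000 taken alone. Its log2 difference lay between 0.92 and 1.72 in all 18.

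The MHC class II genes rested on a handful of cells. Cd74, the invariant chain, gave 4 UMIs in each HFD library, 52 in ND 1 and 73 in ND 2, which is 2.61, 2.63, 33.1 and 45.1 CPM. The log2 difference was -3.86 (SE 0.38, edgeR adjusted p 1.11e-06). Its 52 UMIs in ND 1 lay in 6 cells and its 73 in ND 2 in 8 cells. H2-Aa and H2-Eb1, the alpha and beta chains, differed by -3.80 (adjusted p 0.000172) and -4.36 (adjusted p 0.00672), and both stood below 20 CPM on average, the level set for naming, so they are named after their values were seen. Members with at least 2 of the 8 macrophage genes numbered 5 and 1 in the HFD libraries and 3 and 5 in the ND libraries. The call for H2-Eb1 was lost with DESeq2 and without ND 2. With a gate of 4 markers and 20 gate UMIs per 10000 the 3 genes were too low to be tested. In the other kept cells Cd74, H2-Aa and H2-Eb1 were also lower in HFD, by -1.06, -1.07 and -1.07 on the log2 scale (edgeR adjusted p 1.85e-06, 1.66e-05 and 9.93e-06). Without the 14 macrophage-marked members the 3 genes were again too low to be tested, and 6 genes passed the edgeR test: Clu, Sparc, Sycp1, Zbtb20, Dazl and Psmg2. The lymphocyte list of 7 genes was also lower in HFD without overlap, at 4.44 and 0.64 CPM against 8.11 and 7.42. The interstitial fibroblast list was likewise lower, at 3.81 and 7.02 CPM against 21.8 and 8.65. The endothelial list was higher, at 6.98 and 8.30 against 6.24 and 3.71. In these 3 lists 0 genes had counts enough to be tested. The part of any of them in the class II difference was not tested. The macrophage genes Lyz2 and C1qa overlapped between the diets over all members, with Lyz2 at 28.7, 1.31, 23.6 and 22.9 CPM. Among members above 200 spermatid UMIs per 10000, however, Lyz2 and Cd74 were the 2 genes that passed, both lower in HFD (Lyz2 log2 -4.36, edgeR adjusted p 0.00258). Lyz2 too rested on a handful of cells. Over all members its UMIs lay in 4, 2, 3 and 6 cells of HFD 1, HFD 2, ND 1 and ND 2.

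**Figure D5:**
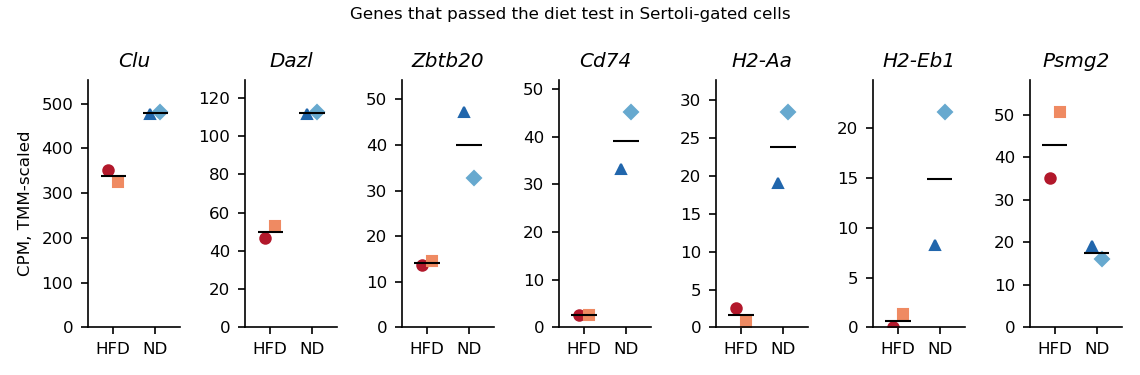
TMM-scaled CPM of the 7 genes that passed the edgeR test between diets in summed member counts; points are libraries (HFD 1 and 2, ND 1 and 2) and bars are means of 2. In each panel the diets do not overlap, and Cd74, H2-Aa and H2-Eb1 stand near 0 in HFD.

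The other core Sertoli genes showed no call. Of 38 such genes 27 were tested, and Clu was the only one to pass, with 8 positive and 19 negative log2 differences and a median of -0.23, against -0.01 over all 10616 genes. Both libraries of 1 diet lay on 1 side of both libraries of the other for 39.6% of all tested genes. Inhbb, a subunit of inhibin B and activins, stood at 13.0 and 9.19 CPM in HFD and 17.2 and 23.5 in ND (log2 -0.87, SE 0.33, adjusted p 0.432). Kitl, the ligand of KIT on spermatogonia, stood at 10.4 and 6.57 against 17.8 and 13.6 (log2 -0.88, SE 0.37). Scarb1, a scavenger and lipoprotein receptor, stood at 26.1 and 26.9 against 41.4 and 34.0. Slc2a3, a glucose transporter, stood the other way, at 325 and 422 against 279 and 295 (log2 0.38, SE 0.11, adjusted p 0.34). Inha, Cldn11 and Gata4 differed by -0.12 (SE 0.13), -0.24 (SE 0.17) and -0.18 (SE 0.39), and Defb36 by 0.06 (SE 0.10). Of 217 non-gate genes at least 10 times higher in members, Clu alone passed, 53 log2 differences were positive and 164 negative, and their median was -0.13. Over all 10616 genes 7 passed, 5107 differences were positive and 5509 negative.

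Gene lists of Sertoli function were read the same way, by counts of calls and medians, and only the list of secreted products held a call. That list had 13 of 27 genes tested, with Clu lower and a median of -0.12. Of 22 tested genes of the blood-testis barrier and junctions 0 passed by the edgeR adjusted p, and 3 had positive and 19 negative log2 differences (median -0.27). Among them F11r, a junctional adhesion molecule, stood at 14.3 and 17.1 CPM in HFD and 29.9 and 31.5 in ND (log2 -0.97, SE 0.27, adjusted p 0.233). Ctnnb1, beta-catenin, stood at 27.4 and 19.7 against 44.0 and 40.1 (log2 -0.83, SE 0.23, adjusted p 0.244). Their libraries did not overlap, but neither passed.

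Metabolic lists also held no call. Glucose uptake, glycolysis and lactate export had 19 of 21 genes tested with 12 above 0 and 7 below, and a median of 0.02. Ldha stood at 577 and 596 CPM in HFD and 521 and 520 in ND (log2 0.17, SE 0.09). Lipid uptake, storage and oxidation had 26 of 35 tested, 10 above 0 and 16 below, and a median of -0.08. In it Dgat2, which makes triglyceride, stood at 53.4 and 54.5 against 74.5 and 73.5 (log2 -0.46, SE 0.17), and Fabp5, a fatty acid binding protein, at 43.0 and 36.1 against 52.9 and 59.3 (log2 -0.50, SE 0.19). Pnpla2, a triglyceride lipase, stood the other way, at 182 and 201 against 167 and 155 (log2 0.25, SE 0.12). Acsl1, which activates fatty acids, overlapped between diets at 255 to 285 CPM. Cholesterol and fatty acid synthesis had 17 of 26 tested and a median of -0.06, with Fdft1, an enzyme of the cholesterol pathway, overlapping between diets. Elovl5, an elongase, and Fads2, a desaturase, differed by -1.55 (SE 0.50) and -0.71 (SE 0.26) without passing.

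Stress and interferon lists held no call. Immediate early and heat shock genes had 17 of 23 tested, 3 above 0 and 14 below, with a median of -0.51. Hspa1a, an inducible heat shock chaperone, gave 3, 2, 12 and 23 UMIs (log2 -2.69, SE 0.59, edgeR adjusted p 0.0927, not passed), and Hspa8, its constitutive relative, stood at 58.6 and 51.2 CPM against 78.4 and 78.4 (log2 -0.51, SE 0.17), and its log2 difference was -0.24 without the 34 Clu-rich cells. The immediate early gene Junb stood at 12.4 and 2.63 against 20.4 and 14.8. Hsp90aa1 overlapped between diets at 1588 to 1909 CPM. Interferon-induced genes had 7 of 26 tested, all 7 below 0, with a median of -0.54, and Ifi27 was at 24.1 and 23.6 CPM against 40.1 and 35.8 (log2 -0.67, SE 0.23). The unfolded protein response had 13 of 15 tested with a median of -0.03, antioxidant genes 20 of 23 with -0.10, apoptosis 11 of 20 with -0.06, and phagocytosis and lysosome genes 23 of 32 with -0.14. In the iron and metal list Mt2, a metallothionein, stood at 590 and 615 CPM against 471 and 464 (log2 0.37, SE 0.09, adjusted p 0.178).

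Hormone receptors and their transduction had 12 of 29 genes tested, 0 called and a median of -0.18. Gnas, the stimulatory G protein subunit downstream of the receptor of follicle-stimulating hormone, stood at 381 and 356 CPM against 396 and 458 (log2 -0.21, SE 0.10). Androgen-responsive genes had 8 of 9 tested and a median of -0.07, and Rhox5 stood at 50.2 and 46.6 against 63.7 and 58.7 (log2 -0.34, SE 0.18). Transcription factors had 13 of 17 tested with a median of -0.23, retinoid genes 8 of 18 with -0.12, insulin and energy signalling 11 of 26 with -0.26, and basement membrane genes 2 of 23 with -0.57.

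The diet change in members was set against that in all other kept cells of the same libraries in 1 fit with an interaction term. Of 23973 genes 71 passed, which is 0.296%, and 64 of these had the higher log2 ratio in members (0.267%) and 7 the lower (0.0292%). None of the 64 passed in members alone, where their median log2 difference was 0.09. In the other kept cells all 64 were below 0, with a median of -0.30. Defb19, a gate gene and so given as a description, differed by 0.08 (SE 0.09) in members and by -0.83 in other cells, where it stood at 30.6 to 55.7 CPM. Ldhb differed by 0.08 in members and -0.60 in other cells, an interaction of 0.76 (SE 0.11, edgeR adjusted p 0.000762), and Gamt by 0.09 and -0.69, an interaction of 0.86 (SE 0.13, adjusted p 0.00091). Leydig-gated cells, part of the other kept cells, were fewer in HFD, and Leydig genes in other kept cells summed to 345 and 352 CPM in HFD and 579 and 525 in ND. Within Leydig-gated cells Ldhb and Gamt differed by -0.17 and -0.23, and neither passed the interaction test against them. The part of the makeup of the other cells in the interaction was not tested. The 7 genes lower in members included Cd74, Zbtb20, H2-Aa and Dazl. The count turned on scaling: with RLE factors in place of TMM 16 passed, 11 higher and 5 lower, and without any 1 library between 0 and 2 did.

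Against Leydig-gated cells, 4 of 13258 genes passed the interaction test, which is 0.0302%, with 1 higher in members (0.00754%) and 3 lower (0.0226%). Cd74 and Zbtb20 were among the 3 with the lower log2 ratio in members. Zbtb20 differed by -0.04 in Leydig-gated cells, an interaction of -1.39 (SE 0.26, edgeR adjusted p 0.0225). Clu differed by -0.61 in all other kept cells and by -0.08 in Leydig-gated cells, and was not among the genes that passed either interaction test. Without ND 1 and without ND 2, 0 genes passed against Leydig-gated cells by edgeR, with 560 and 575 genes at an unadjusted p under 0.05.

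Members also varied among themselves. For 102 genes at least 10 times higher in members and at 50 CPM or more, the spread of a gene between cells beyond counting error was taken as its excess squared coefficient of variation, and its median was 0.53. Clu was the most variable, at 1.22, 1.71, 3.68 and 3.77 in HFD 1, HFD 2, ND 1 and ND 2. Ctsl followed at 0.92, 0.95, 3.19 and 1.82, then Cidea at 1.06, 0.88, 1.17 and 0.93 and Espn at 0.87, 0.94, 1.20 and 1.97, in order of the lowest library. Of the gate genes, whose spread the gate itself limits, Amhr2 had a median of 0.80, Cst9 0.54, Cst12 0.52, Rhox8 0.49, Defb19 0.47 and Aard 0.42. Clu, Ctsl and Espn had higher values in both ND libraries than in both HFD libraries, as did Amhr2, Cldn11, Vim, Inha, Sdc4, Creg1 and Qpct, among others. Uchl1 and Rhox8 had lower values in both ND libraries. The share of the 102 genes without overlap between diets was not counted, so the genes named are examples only. The ND libraries also held more Clu-rich cells, whose part in these values was not tested.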

How the data were processed

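The authors deposited 1 matrix of raw UMI counts per library, whole numbers that were not scaled. Software version 3.0.2 is given in the headers. The build is mm10 per the submitters' processing notes, and the aligner and cell calling are not given in the sources used here. All 55450 gene identifiers matched GENCODE M21 (GRCm38). The 4 libraries held 143748262 to 154221188 UMIs, and 110 barcodes failed the limits on genes or mitochondrial share. Doublets were called with Scrublet in scanpy 1.11.5 (expected rate 0.1) and kept in the members.

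Member counts were summed per library and tested with edgeR 4.0.16 in R 4.3.3 (filterByExpr, TMM, quasi-likelihood, Benjamini-Hochberg over all tested genes, threshold 0.05). The SE is the log2 ratio divided by the square root of F. Tests against other cells used an interaction term, which treats sums of 1 library as independent. Simulated counts for 10616 genes were drawn independently at the fitted dispersion, with changed genes taken only from those at a mean of 20 CPM or more. Of these, 89 of 100 genes changed 2-fold and 98 of 100 changed 4-fold were recovered, with 2 false calls. The simulation does not cover changed genes below 20 CPM or genes held by few cells. Alternatives used DESeq2 1.42.0 and limma 3.58.1 (pseudocount 1), other gates, depth floors and each library left out. Thinning left out 646 members under 3000 UMIs.

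Genes named were the gate genes, 38 core genes, genes that passed at a mean of 20 CPM or more with diets that do not overlap, the nearest that did not pass, and the 15 with the highest ratio to other cells. The members and gene lists were chosen with earlier results of these data known. Values of 4 genes are not reported here.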

Additional observations from a re-analysis of the deposited data

Results flagged for a closer look

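The diet change differed between members and other cells for 4 of the genes that passed in members, each by an interaction term in edgeR with Benjamini-Hochberg adjustment. Values are the log2 change of HFD over ND in members minus that in the other cells. For Zbtb20 this was -1.27 against all other kept cells (edgeR adjusted p 0.0221) and -1.39 against Leydig-gated cells (adjusted p 0.0225). For Dazl it was -0.81 (adjusted p 0.0221) and for H2-Aa -2.70 (adjusted p 0.0382), both against all other kept cells. For Cd74 it was -2.76 against all other kept cells (adjusted p 0.00481) and -3.48 against Leydig-gated cells (adjusted p 0.00918). In members the Cd74 UMIs lay in 4, 3, 6 and 8 cells of HFD 1, HFD 2, ND 1 and ND 2, and Zbtb20 was found in 18, 18, 38 and 29 cells. The part played by the 14 members with macrophage genes in the interaction values was not tested.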

How the results depend on the processing

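The count of 7 genes between diets in members stayed within 1.5 times under RLE factors, limma, a mitochondrial limit of 10%, doublets left out, a stricter gate (4 markers and 20 gate UMIs per 10000), members above 200 spermatid UMIs left out, and the Clu-rich or macrophage-marked members left out. It was 3 with DESeq2, 2 among members above 200 spermatid UMIs (an alternative added after seeing the data), and 20 with at least 2000 UMIs (added likewise). With no filter on low counts it was 0 by edgeR (1119 genes at an unadjusted p under 0.05), and with members thinned to 3000 UMIs it was 0 (519 genes); fewer cells enter the thinned fit. Leaving out 1 library gave 6 to 189, the highest without HFD 1. Signs turned for several named genes, which apart from Clu had not passed. Among members above 200 spermatid UMIs the log2 difference became 0.15 for Clu, 0.29 for Sparc, 0.32 for Inha, 0.28 for Inhbb, 0.44 for Cldn11, 0.14 for Vim, 0.30 for Ctsl and 0.056 for Espn. Without the Clu-rich members it became 0.10 for Clu, 0.048 for Sparc, 0.15 for Inha, 0.44 for Gata4, 0.076 for Cldn11, 0.25 for Gja1 and 0.19 for Ctsl. Without members above 200 it became -0.36 for Dhh, -0.34 for Dmrt1 and -0.063 for Defb36. In thinned members it became 0.23 for Inha and 0.050 for Rhox5, with at least 2000 UMIs -0.0041 for Cldn3, and without the 5 richest cells of each library 0.0073 for Ctsl. Without 1 library it ranged from -0.21 to 0.00080 for Inha, -0.098 to 0.53 for Dhh, -0.56 to 0.082 for Sox8, -0.050 to 0.21 for Cldn3, -0.37 to 0.25 for Gja1, -0.24 to 0.83 for Jag1 and -0.094 to 0.21 for Defb36.

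Against all other kept cells the count of 71 became 16 with RLE factors, 0 with no filter, 152 without doublets, 254 with the stricter gate and 15 without members above 200 spermatid UMIs, and 0 to 2 without 1 library. Against Leydig-gated cells 4 became 28 with no filter, 1 without members above 200 spermatid UMIs, and 0 to 21 without 1 library.

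Labels number the replicates in both diets. Over the genes tested in members, deviations from the diet mean correlated at r = -0.02 between same-numbered libraries and 0.02 between the others. With 2 libraries per diet these are 1 value with its sign turned, so they cannot decide whether the numbers mark pairs. With a replicate block the counts were 25 in members, 241 against other kept cells and 6 against Leydig-gated cells.

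The log2 ratio of the share, -0.13, was -0.034 at a mitochondrial limit of 10%, -0.091 with the stricter gate, -0.25 without members above 200 spermatid UMIs, 0.018 with at least 2000 UMIs and 0.21 as a share of members and Leydig-gated cells. The log2 ratio of median UMIs, 0.32, became 0.056 with at least 2000 UMIs, and that of median genes, 0.24, became 0.035, with 0.17 to 0.31 without 1 library. The log2 ratio of the mitochondrial share, -0.04, was 0.11 at a limit of 10%, -0.25 without members above 200 spermatid UMIs, and -0.18 to 0.080 without 1 library, the highest without HFD 2. Over 48 named genes and 833 values under alternatives, 721 kept direction and side of the threshold and 33 changed sign; the cause of these changes was not tested. Depth is 1 limit: the median member had 2588 to 3526 UMIs, and transcription factors and receptors gave few counts.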

Other observations

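Of the 9 genes nearest to passing in members and higher in HFD, 8 had a lower mean level in members than in other kept cells, and 4930570D08Rik was 2.34 times higher in members. Nkapl, a Notch pathway regulator needed for spermatogenesis, stood at 278 and 330 CPM in HFD and 212 and 234 in ND (log2 0.45, SE 0.11, edgeR adjusted p 0.173). Spata16, which is needed for sperm head formation, stood at 227 and 218 against 178 and 140 (log2 0.49, SE 0.12, adjusted p 0.185). Tcam1 stood at 87.3 and 97.8 against 61.8 and 55.6 (log2 0.66, SE 0.16, adjusted p 0.173). The noncoding genes Gm31072 and Gm43352 differed by 0.46 and 0.64, Smad1, a BMP signal transducer, by 0.92, and 3110070M22Rik and 4930570D08Rik by 0.59 and 0.54. All 9 were higher in HFD in the other kept cells too. Nkapl, Spata16 and Tcam1 differed there by 0.31, 0.32 and 0.35, and Gm31072, Gm43352 and Smad1 by 0.39, 0.40 and 0.38. For 3110070M22Rik, Mt2 and 4930570D08Rik the differences there were 0.60, 0.34 and 0.20. All but 4930570D08Rik passed the edgeR test in those cells, as did 34.3% of all genes tested there. None of the 9, among them Mt2, passed in members.

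Among those lower in HFD, Tubb5, a beta tubulin 40.8 times higher in members than in other cells, stood at 96.4 and 84.7 CPM against 126 and 155 (log2 -0.63, SE 0.15, edgeR adjusted p 0.134). Gm2044 stood at 12.4 and 17.7 against 30.6 and 36.4 (log2 -1.15, SE 0.27, adjusted p 0.134), and the Clu-rich cells held 58.2% of its UMIs. Ncoa2, a nuclear receptor coactivator, stood at 22.8 and 21.01 against 38.9 and 46.3 (log2 -0.96, SE 0.23, adjusted p 0.154).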
